A study of Caenorhabditis elegans with 2 samples.

Results

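The piRNA clusters of chromosome IV are the stretches, from 4.5 to 7 Mb (the left cluster) and from 13.5 to 17.2 Mb (the right cluster), that hold most piRNA genes of Caenorhabditis elegans. Regions recovered by ChIP-seq of CHE-1 tagged with GFP were counted as belonging to a cluster when their summit, the highest point given by the authors' peak caller, lay inside it. By this rule 1003 of the 30000 regions called on both replicates together were members, 483 of them in the left cluster and 520 in the right. The rest of chromosome IV held 3293 regions.

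Both samples were whole late embryos of strain OP677, which carries the unc-119(tm4063) III allele and the integrated transgene wgIs677, and expresses CHE-1 with a C-terminal GFP and FLAG tag. They were collected 6 hours after synchronization by egg bleaching, sexes pooled, and chromatin was recovered with an anti-GFP antibody, in 2 biological replicates of 1 group. No untagged strain, mutant or control library was analysed here, so recovery that depends on CHE-1 cannot be told apart from recovery that does not. CHE-1, a transcription factor with zinc fingers, is known from the ASE gustatory neurons, a very small part of a whole embryo, and the transgene adds tagged protein to that of the strain. The values are positions and ranks of regions in lists made by the authors, with no read counts, so depth is unknown. With no second group, every value below is a description, and intervals are exact binomial (Clopper-Pearson) 95% intervals that cover counting error only.

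piRNAs of C. elegans, also called 21U-RNAs, are short germline RNAs that begin with uridine and guide the Argonaute PRG-1 to foreign and transposon sequences, which are then silenced. Unlike the long precursor loci of flies and mice, most worm piRNA genes are tiny, separate transcription units of RNA polymerase II, packed into these clusters between and within coding genes. Upstream of most of them lies a shared motif, known as the Ruby motif, with the core letters CTGTTTCA, and a complex that includes PRDE-1, SNPC-4, TOFU-4 and TOFU-5 binds these upstream sequences in the germline. SNPC-4 also serves small nuclear RNA genes, which makes non-coding genes of other classes in the same clusters a natural comparison.

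The annotation held 15363 piRNA genes, of which 14714 (95.8%) were on chromosome IV, 2816 in the left cluster and 11388 in the right. This amounted to 1126 piRNA genes per Mb in the left cluster and 3078 in the right, against 45.2 per Mb in the rest of the chromosome. The first base was T in 95.6% of the left genes and 96.4% of the right genes. CTGTTTCA lay within the 100 bp upstream, on the gene's own strand, in 40.2% of the left genes and 34.0% of the right genes, and began at a median of 46 bp before the piRNA in the left cluster. The 5 genes printed next belong to the highest ranked members with a summit within 100 bp of a piRNA gene. The last 21 letters, in capitals, are the piRNA gene itself, CTGTTTCA is in capitals where the 60 upstream bases hold it, and the sequences are from assembly WBcel235.
21ur-5229: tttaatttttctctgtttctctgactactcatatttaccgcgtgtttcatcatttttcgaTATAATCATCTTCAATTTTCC
21ur-3160: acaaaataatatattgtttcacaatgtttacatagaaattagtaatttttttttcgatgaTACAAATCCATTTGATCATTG
21ur-7423: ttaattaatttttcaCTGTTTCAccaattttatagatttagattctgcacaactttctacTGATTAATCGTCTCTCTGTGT
21ur-4010: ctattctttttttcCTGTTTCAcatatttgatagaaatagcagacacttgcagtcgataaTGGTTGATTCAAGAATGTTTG
21ur-10763: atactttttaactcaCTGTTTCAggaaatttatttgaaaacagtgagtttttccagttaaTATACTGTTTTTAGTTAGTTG
The first stretch is IV:5967029-5967109 on the plus strand, the second IV:14224908-14224988 on the plus strand, the third IV:15561657-15561737 on the minus strand, the fourth IV:5820473-5820553 on the plus strand and the last IV:16380718-16380798 on the plus strand. The last 3 carry the full core. In the bases shown, the first 2 hold only TGTTTCA, the core without its first letter. The first 2 are also the genes that lie beside a tRNA gene.

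Regions were sparser in the clusters than in the rest of the chromosome. The left cluster held 193.2 regions per Mb (204.8 in the list of replicate 1 and 215.2 in that of replicate 2) and the right cluster 140.5 (149.2 and 151.4), against 291.6 in the rest of chromosome IV (289.1 and 293.4). Both replicates thus gave fewer regions per Mb in each cluster than outside. The rest of the chromosome was itself uneven. It held 391.6 regions per Mb before the left cluster, 224.0 between the clusters and 255.3 after the right cluster. The nearest stretch to compare with, between the clusters, thus exceeded the left cluster by a small margin. The left cluster's figure includes its first stretches of 100 kb, which held 0, 1 and 8 piRNA genes but 48, 37 and 42 regions. Regions covered 7.13% of the bases of the clusters and 12.8% of the bases of the rest. The clusters are also poorer in G and C, at 34.0% in the left and 32.3% in the right, against 35.5% in the rest. Windows that reach 50 bp to each side of the summits were much alike, at 40.3% in the left cluster and 40.7% in the right, against 40.4% in the rest. The part of base composition in the density was not tested.

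**Figure D1:**
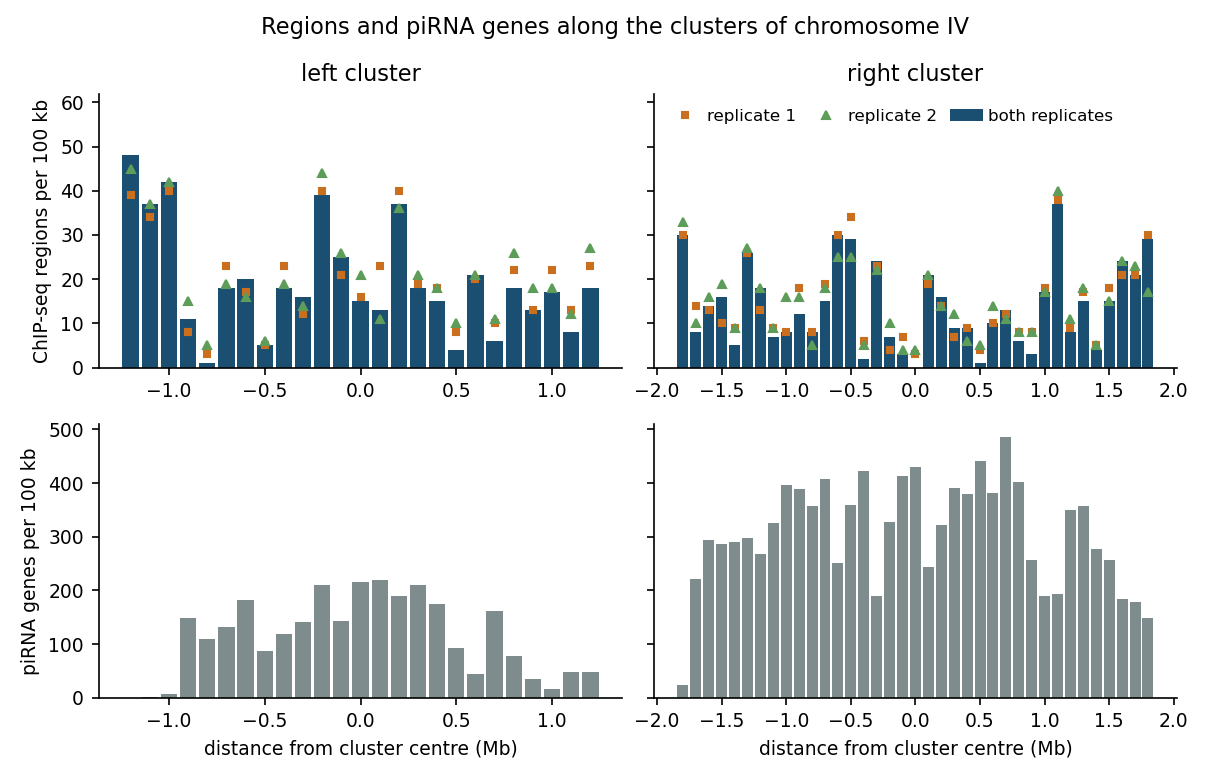
Regions (upper row) and piRNA genes (lower row) in each 100 kb of the left and right clusters, by distance from the cluster's centre in Mb. Bars are counts in the joint list of both replicates, squares and triangles are counts in the lists of replicate 1 and replicate 2. In the right cluster the 100-kb stretches richest in piRNA genes hold few regions, while the left cluster shows no such order.

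Within the right cluster, regions thinned out where piRNA genes were dense. The 13 stretches of 100 kb with the fewest piRNA genes, 24 to 268 each, held 213 regions per Mb (218 in replicate 1 and 210 in replicate 2). The 12 stretches with 277 to 359 piRNA genes held 129 per Mb (132 and 140), and the 12 with 380 to 486 held 73.3 per Mb (92.5 and 99.2). The same order held in the joint list and in each replicate. Coding genes followed it too, with 164, 117 and 88.3 per Mb in those groups, as did G and C, with 33.2%, 32.5% and 31.1%, so these features cannot be told apart here. In the left cluster there was no such order, with 247 regions per Mb in the 9 stretches poorest in piRNA genes, 122 in the middle 8 and 204 in the 8 richest. Coding genes there came to 193, 260 and 124 per Mb, so the group richest in coding genes had the fewest regions. G and C were 34.8%, 33.8% and 33.1%.

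Few members sat at piRNA genes. In the left cluster 38 of 483 summits (7.87%, interval 5.63 to 10.6) lay within 100 bp of a piRNA gene, although 18.4% of the cluster's bases do. In the right cluster it was 54 of 520 (10.4%, interval 7.90 to 13.3), with 41.0% of bases. Taken as a ratio to the share of bases, this was 0.43 in the left cluster (0.66 in replicate 1 and 0.43 in replicate 2) and 0.25 in the right (0.36 and 0.34). The few piRNA genes of the rest of chromosome IV gave 13 of 3293 summits (0.395%, interval 0.210 to 0.674) with 0.876% of bases, a ratio of 0.45. That figure pools unlike stretches. The ratio was 0.38 before the left cluster (1 summit) and 0.35 between the clusters (5 summits), but 0.99 in the short stretch after the right cluster, where 7 of 75 summits (9.33%, interval 3.84 to 18.3) lay at piRNA genes with 9.45% of bases (0.77 in replicate 1 and 1.18 in replicate 2). That stretch holds 596 piRNA genes per Mb. In both clusters, the joint list and both replicates fell below the share of bases, and the intervals of all of them ended short of it.

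**Figure D2:**
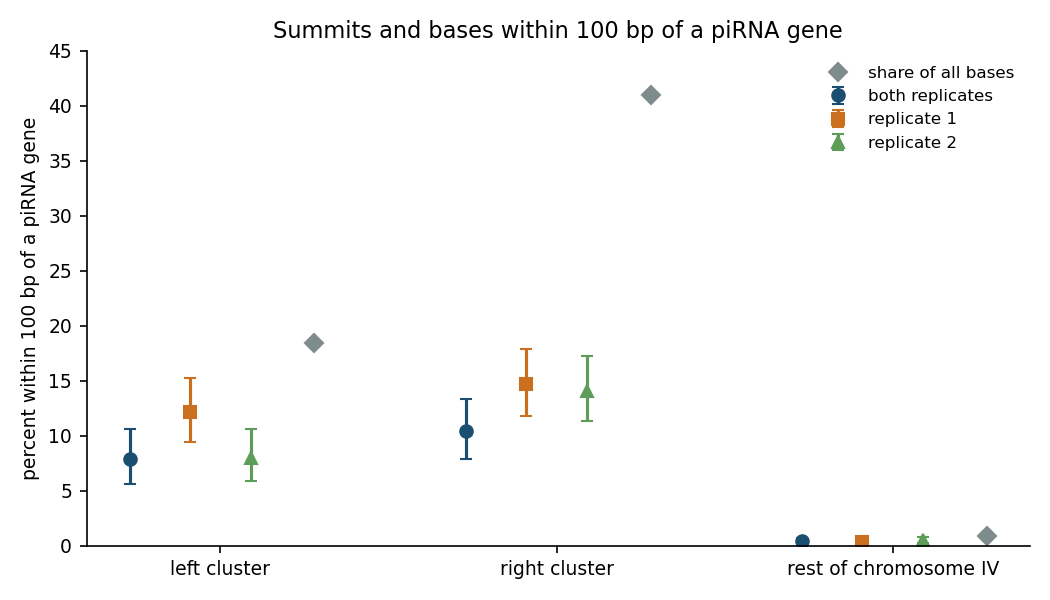
Percentage of summits within 100 bp of a piRNA gene in the left cluster, the right cluster and the rest of chromosome IV, in the joint list and in each replicate's list, with exact 95% intervals. Grey diamonds are the percentage of all bases that lie that close, 18.4% in the left cluster and 41.0% in the right, above all intervals of the same cluster.

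The ratio was below 1 in every type of location in both clusters, in the joint list and in each replicate. Among promoter summits, here those up to 1 kb upstream of a coding transcript's start, the ratio was 0.28 in the left cluster and 0.18 in the right. It was 0.30 and 0.17 in exons, 0.44 and 0.37 in introns, and 0.58 and 0.29 between genes. In the right cluster every interval in the 3 lists ended below the share of bases. In the left cluster the exon intervals did not, with 2 of 90 summits in the joint list (0.270 to 7.80%, with 7.46% of bases), nor did those of replicate 1 in introns (14.7 to 29.4%, with 27.1%) and between genes (8.96 to 21.7%, with 21.5%). Single replicates moved some ratios by over 1.5 times, the left introns to 0.79, the left promoters to 0.51, the right promoters to 0.31 and the right exons to 0.29 in replicate 1, and the left exons to 0.72 and the right promoters to 0.36 in replicate 2. Of the 1003 members, 283 (28.2%) lay in promoters, 191 (19.0%) in exons, 289 (28.8%) in introns and 240 (23.9%) between genes. Against the bases of the clusters, of which 18.2% are promoter and 40.2% intergenic, promoters were over-represented and intergenic sequence under-represented. In the rest of chromosome IV the shares were 30.2% in promoters and 21.5% between genes, with 24.3% and 22.4% of bases.

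Around the 5′ ends of piRNA genes the lowest ratio lay within 200 bp of the 5′ end in each list and cluster. In the left cluster, pairs of a piRNA gene and a summit in the 100 bp upstream of the 5′ end came to 0.51 of the number an even spread of summits over the cluster would give (0.80 in replicate 1 and 0.45 in replicate 2). In the 100 bp downstream of the 5′ end, a span that holds the piRNA itself, the ratio was 0.33 (0.64 and 0.38). The upstream 100 bp, where the motif lies, gave 0.18 in the right cluster (0.26 in replicate 1 and 0.30 in replicate 2), and the downstream 100 bp gave 0.25 (0.36 and 0.32). Within 100 bp on either side together, the ratio was 0.42 in the left cluster (0.72 and 0.41) and 0.22 in the right (0.31 and 0.31). At 500 to 1000 bp on either side it was 0.88 in the left cluster (0.93 and 0.87) and 0.52 in the right (0.59 and 0.61). Replicate 1 of the left cluster had no dip in the upstream 100 bp, where its 0.80 was like the 0.78 at 300 to 400 bp upstream, and its lowest steps were at 100 to 200 bp on either side (0.57 upstream and 0.59 downstream). Neighbouring piRNA genes share summits in these counts, so they are not independent of one another.

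**Figure D3:**
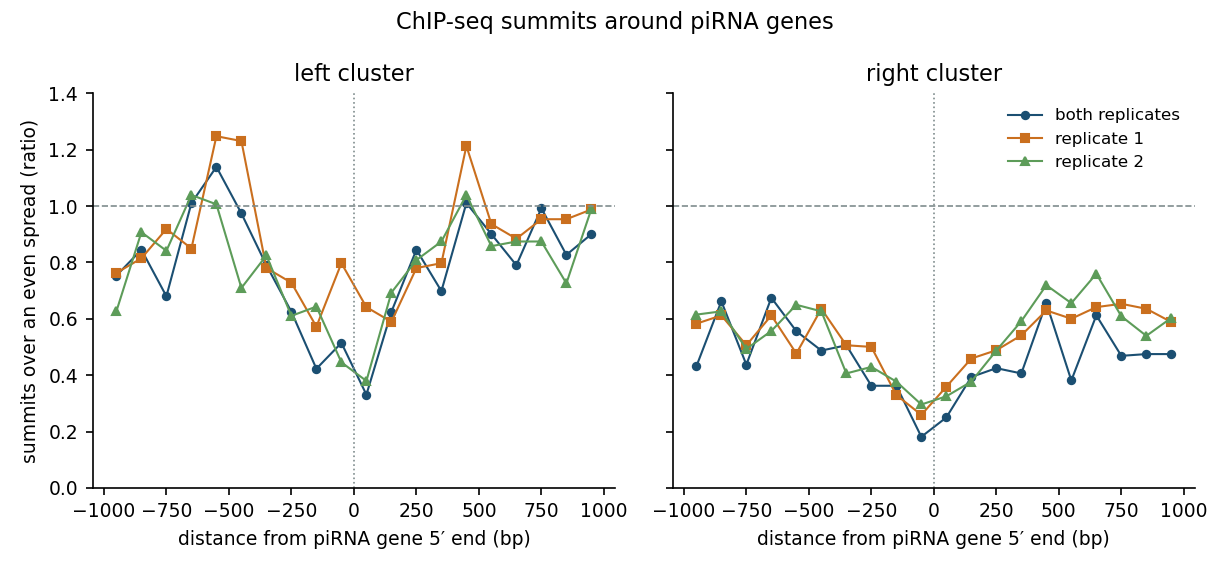
Summits at each distance from piRNA 5′ ends, in steps of 100 bp and oriented by the gene's strand, as a ratio to an even spread over the cluster (dashed line at 1), for the joint list and each replicate. The joint list is lowest just downstream of the 5′ end in the left cluster (0.33) and just upstream of it in the right cluster (0.18).

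Counted by gene, 132 of the 14204 piRNA genes in the clusters (0.929%) had a summit within 100 bp, 54 in the left cluster (1.92%) and 78 in the right (0.685%), against 15 of 510 (2.94%) in the rest of chromosome IV. Genes with CTGTTTCA upstream did not stand above those without it. In the left cluster 16 of 1132 genes with the core had a summit (1.41%), against 38 of 1684 without it (2.26%). In the right cluster it was 25 of 3870 (0.646%) with the core, against 53 of 7518 (0.705%) without it.

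The motif itself was scarce at member summits. CTGTTTCA, read on both strands in the window that reaches 50 bp to each side of the summit, was present in 19 of 1003 members (1.89%, interval 1.14 to 2.94), 34 of 1064 regions of replicate 1 (3.20%) and 25 of 1098 of replicate 2 (2.28%). It is present in 7.36% of all windows of that length in the clusters. In the rest of chromosome IV, 0.456% of summits held it, with 0.760% of windows. The same letters reversed, ACTTTGTC, were in 0.199% of members (2 of 1003) and 0.302% of the clusters' windows. The shares with CTGTTTCA were not compared within ranges of G and C. The motif also lies upstream of piRNA genes, where summits were few, so its scarcity is not separate from that shortfall. The part of base composition was not tested. The cores described for CHE-1 in ASE neurons, GAAACC and GAAGCC, were in 5.58% and 3.59% of members, with 5.33% and 2.45% of windows. The interval for GAAGCC lay above the share of windows in the joint list (2.53 to 4.93), in the right cluster (5.00% of members, 3.29 to 7.24, with 2.34% of windows) and not in the left (2.07%, 0.997 to 3.77, with 2.60%). In the clusters the intervals of replicate 1 (2.14 to 4.33) and replicate 2 (2.31 to 4.51) included the share of windows. In the rest of chromosome IV, 3.98% of summits (3.34 to 4.70) and 3.07% of windows held GAAGCC. The 6-mer CGCACA, taken from earlier results of these data, was in 3.69% of members (interval 2.61 to 5.05; 2.82% in replicate 1 and 3.19% in replicate 2) and 1.62% of the clusters' windows, against 3.34% of summits and 1.96% of windows in the rest of the chromosome.

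Base composition moved with the shortfall at piRNA genes. Windows at piRNA 5′ ends held 28.7% G and C in the left cluster and 28.3% in the right, while all windows held 34.0% and 32.3%, and windows at member summits 40.3% and 40.7%. The 92 members at piRNA genes averaged 32.9%, against 41.2% in the other 911. Within ranges of G and C content the ratio of the members' share at piRNA genes to that of all windows was larger, and the clusters differed. Summed over 4 ranges, the left cluster had 38 members at piRNA genes where an even share within ranges would give 55.3, a ratio of 0.69 (0.93 in replicate 1 and 0.66 in replicate 2). As shares, this was 7.87% of members (interval 5.63 to 10.6) where an even share would be 11.5%, 12.1% (9.41 to 15.3) where it would be 13.0% in replicate 1, and 7.99% (5.84 to 10.6) where it would be 12.1% in replicate 2. The right cluster had 54 where it would give 128, a ratio of 0.42 (0.52 and 0.56).

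In the left cluster, every interval of the joint list and of replicate 1 included the share of windows in the same range of G and C, and in replicate 2 all but that of the range from 30 to 40% did (8.49%, interval 5.11 to 13.1, with 15.0% of windows). In replicate 1 the left cluster's ratio was above 1 in a pair of ranges, at 1.03 under 30% and 1.38 from 40 to 50%. In the right cluster the shortfall was present below 40% G and C in all 3 lists. Under 30%, 21 of 84 members were at piRNA genes (interval 16.2 to 35.6%), 31.7% in replicate 1 and 35.3% in replicate 2, with 58.5% of windows. From 30 to 40% it was 19 of 158 (12.0%, interval 7.40 to 18.1), 15.0% and 15.8%, with 33.3% of windows. From 40 to 50% the intervals of the joint list and replicate 2 ended below the 11.6% of windows while that of replicate 1 included it, and at 50% or more the interval of each list included the 4.95% of windows. In the right cluster the sum over ranges fell short in all 3 lists, and single ranges did so in all 3 only below 40%. The left cluster's shortfall showed in the sum over ranges in the joint list and replicate 2 but not in replicate 1. The ranges are wide, and the part of base composition in the shortfall was not tested.

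**Figure D4:**
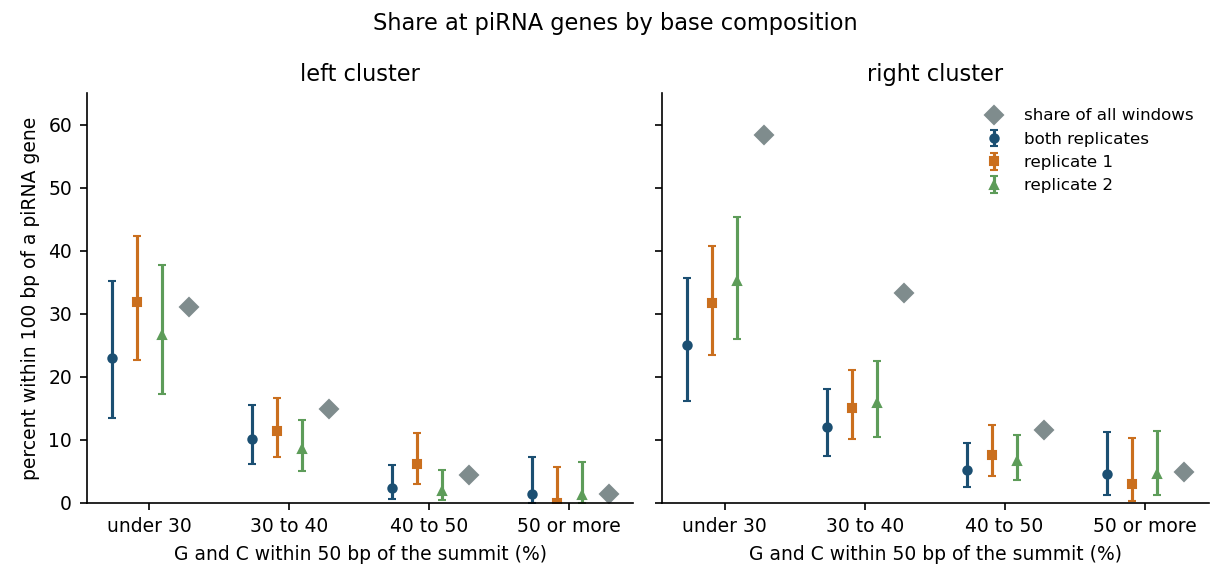
Percentage of summits within 100 bp of a piRNA gene in the left and right clusters, by G and C content within 50 bp of the summit, in the joint list and in each replicate's list, with exact 95% intervals. Grey diamonds are the percentage of all windows of that composition that lie that close, which is above all intervals of the right cluster in the ranges under 40%.

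The strongest members were counted with the authors' IDR set, the regions that passed the irreproducible discovery rate procedure, which weighs how alike replicates rank regions. In the clusters these were exactly the highest ranked members of the joint list. Of all 30000 regions 2.64% were in this set, and of the regions in the rest of chromosome IV 2.34% were (77 of 3293, interval 1.85 to 2.91). Of the members, 38 were (3.79%, interval 2.69 to 5.16), 14 in the left cluster (2.90%) and 24 in the right (4.62%, interval 2.98 to 6.79). The intervals of the clusters together and of the rest of the chromosome overlapped. That of the right cluster alone lay above that of the rest in the joint list, by a narrow margin (2.98 against 2.91). Of its 24 entries, those ranked 70 and 676 share the same span, so they are not independent. Taking as many of the highest regions, it also lay above in replicate 2 (2.91 to 6.52, against 1.65 to 2.66). In replicate 1 it did not (2.81 to 6.40, against 1.81 to 2.87). By length, the clusters held 6.13 IDR regions per Mb and the rest 6.82, with 9.33 before the left cluster, 5.23 between the clusters and 3.40 after the right, so the clusters stood below the rest as a whole and above the stretch between them. As many of the highest regions of each replicate's own list included 39 cluster regions in replicate 1 and 35 in replicate 2.

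tRNA genes made up the largest class of non-coding genes among them. Of the 38 IDR members, 15 (39.5%, interval 24.0 to 56.6) had a summit within 100 bp of a tRNA gene, 4 in the left cluster and 11 in the right. In the rest of chromosome IV it was 15 of the 77 IDR regions. Of the 38, 1 was at a miRNA gene and 22 were at none of these. Promoters of coding genes held 13 of the 22 and also 4 of the 15 at tRNA genes. Counted apart, 11 of the 38 lay at a gene annotated as ncRNA, some of them also at a tRNA gene. tRNA genes are transcribed by RNA polymerase III from promoter elements inside the gene. The clusters hold 41 of them, 6.61 per Mb, against 30 in the rest of chromosome IV, 2.66 per Mb. With the regions at tRNA genes left out, 23 of 978 members (2.35%) and 62 of 3270 regions of the rest (1.90%) were in the IDR set, and in the right cluster 2.59% were (interval 1.39 to 4.40), which overlaps the interval of the rest (1.46 to 2.42).

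By gene, 23 of the 41 cluster tRNA genes (56.1%) had a summit within 100 bp and 15 (36.6%) an IDR summit, against 22 (73.3%) and 15 of 30 in the rest of the chromosome. Replicate 1 gave 24 cluster tRNA genes with a summit and replicate 2 gave 25. piRNA genes, with 0.929%, were far less often marked than tRNA genes in the same clusters, although both are short transcription units. Of the 18 snoRNA genes of the clusters 5 had a summit, all in the left cluster and none in the IDR set, against 15 of 41 in the rest, 10 of them in the IDR set. snRNA genes, which share SNPC-4 with piRNA genes, had 1 of 16 with a summit, against 2 of 25 in the rest. miRNA genes had 1 of 19, against 6 of 31. Genes annotated as ncRNA had 82 of 321 (25.5%), against 199 of 737 (27.0%). tRNA genes occur in near-identical copies, among which the authors' alignment may have split reads, so a rank at a single copy is uncertain.

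The summits lay on or close to the tRNA body. Of the 15, 9 were inside the gene, 4 upstream and 2 downstream, with a median of 12 bp after the gene's first base, and the genes were of 9 kinds by the RefSeq names. The highest, at the tRNA-Lys gene B0350.t1, ranked 131 in the joint list, 125 in replicate 1 and 148 in replicate 2. Next were the tRNA-Gly gene Y57G11B.t1, with ranks of 203, 163 and 303, and the tRNA-Gln gene Y4C6B.t1, with 204, 209 and 238. The tRNA-Ala gene Y37A1B.t1 ranked 261 in the joint list, 262 in replicate 1 and 294 in replicate 2. The tRNA-Ala gene Y65A5A.t1 had ranks of 312, 284 and 443 in the same order of lists, and the tRNA-Leu gene C43G2.t1, upstream of the protease gene try-3, 324, 330 and 316. All of these were among the highest 500 regions of every list. The tRNA-Asp genes Y105C5B.t4 and Y105C5B.t1 were not. Their ranks were 596 and 706 in the joint list, 1327 and 1478 in replicate 1, and 463 and 468 in replicate 2.

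Only 2 IDR members lay within 100 bp of a piRNA gene, and both lay within 100 bp of a tRNA gene as well. One was the member at B0350.t1, IV:5967057-5967258, between coding genes, whose summit lay 25 bp upstream of the tRNA and close to 21ur-5229. The other was the member at the tRNA-Pro gene F02H6.t1, IV:14224828-14225311, also between coding genes, with its summit 32 bp upstream of the tRNA and near 21ur-3160. It ranked 661 in the joint list, 650 in replicate 1 and 1426 in replicate 2. The window around the first summit, IV:5967085-5967185 on the plus strand, shows how close the genes are, with 21ur-5229 in capitals at the left and the start of the tRNA in capitals at the right. The window at Y57G11B.t1, IV:14576626-14576726 read on the gene's minus strand, has the tRNA gene in capitals and serves for comparison as a summit inside a tRNA gene. The summit is the middle letter of each.
B0350.t1 with 21ur-5229: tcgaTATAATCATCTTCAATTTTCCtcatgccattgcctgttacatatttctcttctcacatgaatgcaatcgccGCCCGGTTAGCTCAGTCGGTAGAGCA
Y57G11B.t1: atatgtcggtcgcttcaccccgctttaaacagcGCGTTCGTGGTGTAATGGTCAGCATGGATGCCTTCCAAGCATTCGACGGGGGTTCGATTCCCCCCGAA

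Without a tRNA gene, the highest member at a piRNA gene ranked 964, outside the IDR set, at IV:15561326-15561809 in an intron of the coding gene Y105C5A.1. It ranked 1256 in replicate 1 and 845 in replicate 2, so both replicates held it near the same place. Its piRNA gene, 21ur-7423, carries the full core upstream, and the summit lay on the far side of the gene from that core, in a run of alternating bases shown next (IV:15561518-15561618, plus strand) with CGCACA on either strand in capitals.
summit in Y105C5A.1: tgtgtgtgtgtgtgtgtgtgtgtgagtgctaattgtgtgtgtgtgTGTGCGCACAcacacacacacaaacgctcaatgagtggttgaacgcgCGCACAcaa
The next, ranked 2563 at IV:5820394-5820877, lay by 21ur-4010 and 21ur-15428 and had egal-1, the homolog of the fly RNA transport factor Egalitarian, as its nearest coding gene. It overlapped the region ranked 1382 in replicate 1 and none of the 30000 of replicate 2. The member ranked 3830, IV:16380646-16381129, by 21ur-10763, ranked 18907 in replicate 1 and 1526 in replicate 2. The replicates did not rank these 2 alike.

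Of the 92 members at piRNA genes 8 (8.70%) were among the highest 5000 regions of the joint list, against 168 of the other 911 (18.4%). In the right cluster their median rank was 18979, against 15463 for the others, whereas in the left cluster it was 14173, against 14601. They were found in both replicates' lists in 44 of 92 cases (47.8%, interval 37.3 to 58.5), the other members in 514 of 911 (56.4%, interval 53.1 to 59.7), with overlapping intervals.

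The highest member of all was at a miRNA gene. It spanned IV:14033728-14034352 in the right cluster, between coding genes, with its summit at the start of cel-mir-52, a broadly expressed miRNA of the mir-51 family, and ranked 70 in the joint list, 69 in replicate 1 and 75 in replicate 2. A separate entry of the same span, ranked 676, gave a second summit there. The window around the first summit, IV:14033962-14034062 on the plus strand, has the annotated miRNA gene in capitals, and is shown because no other miRNA gene of the clusters had a summit in the joint list.
summit at cel-mir-52: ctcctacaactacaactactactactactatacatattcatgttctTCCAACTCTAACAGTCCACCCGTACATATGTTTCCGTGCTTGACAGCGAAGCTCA

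The remaining strong members were mostly promoters of coding genes. The member ranked 130, at IV:17087542-17087745, lay 191 bp upstream of snx-13, a sorting nexin gene, with ranks of 127 in replicate 1 and 135 in replicate 2. The region is also upstream of snr-1, which encodes an Sm protein of the spliceosome. The highest promoter member of the left cluster, ranked 162 at IV:6756389-6756872, lay 680 bp upstream of usp-4, whose name stands for ubiquitin-specific protease, with ranks of 135 and 231. Its summit window, IV:6756581-6756681 on the plus strand, holds CGCACA on the minus strand, in capitals in the line after this one as its complement, and is shown as the strongest member with that 6-mer.
summit upstream of usp-4: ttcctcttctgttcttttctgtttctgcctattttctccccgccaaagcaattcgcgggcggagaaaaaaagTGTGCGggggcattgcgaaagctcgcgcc
Ranked 329 was the promoter of lsy-13, named for screens on the left-right asymmetry of the ASE neurons, with the summit 168 bp upstream and ranks of 409 and 311. About 2 kb away, the promoter of gtsf-1, the worm member of a protein family that serves small RNA pathways in animals, ranked 582, with 653 in replicate 1 and 811 in replicate 2. Other promoter members were at sqd-1, which encodes a relative of the fly RNA-binding protein Squid (rank 371, 287 bp upstream), lin-66, a gene of developmental timing (408, 489 bp), nbet-1, a SNARE gene (545), and arf-6, a small GTPase gene (550).

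Not all strong members had an annotated feature of these classes. The member ranked 157, IV:14838249-14838480, lay in an intron of Y57G11C.22, 1159 bp after its start, with ranks of 137 in replicate 1 and 271 in replicate 2. Others between coding genes had rho-1, a small GTPase gene (618), zip-7, a bZIP transcription factor gene (653), and unc-44, the ankyrin gene of neurons (670), as the nearest start, and that ranked 753 lay in an intron of the nuclear receptor gene nhr-46. Each of the 38 overlapped a region in both replicates' lists, and 24 of them were among as many of the highest regions of both as the IDR set holds. The IDR procedure selects for likeness between the replicates, so this agreement is in part a result of the selection and no separate support. The widest gap was at the member ranked 769 near Y67A10A.7, with ranks of 438 in replicate 1 and 7183 in replicate 2.

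**Figure D5:**
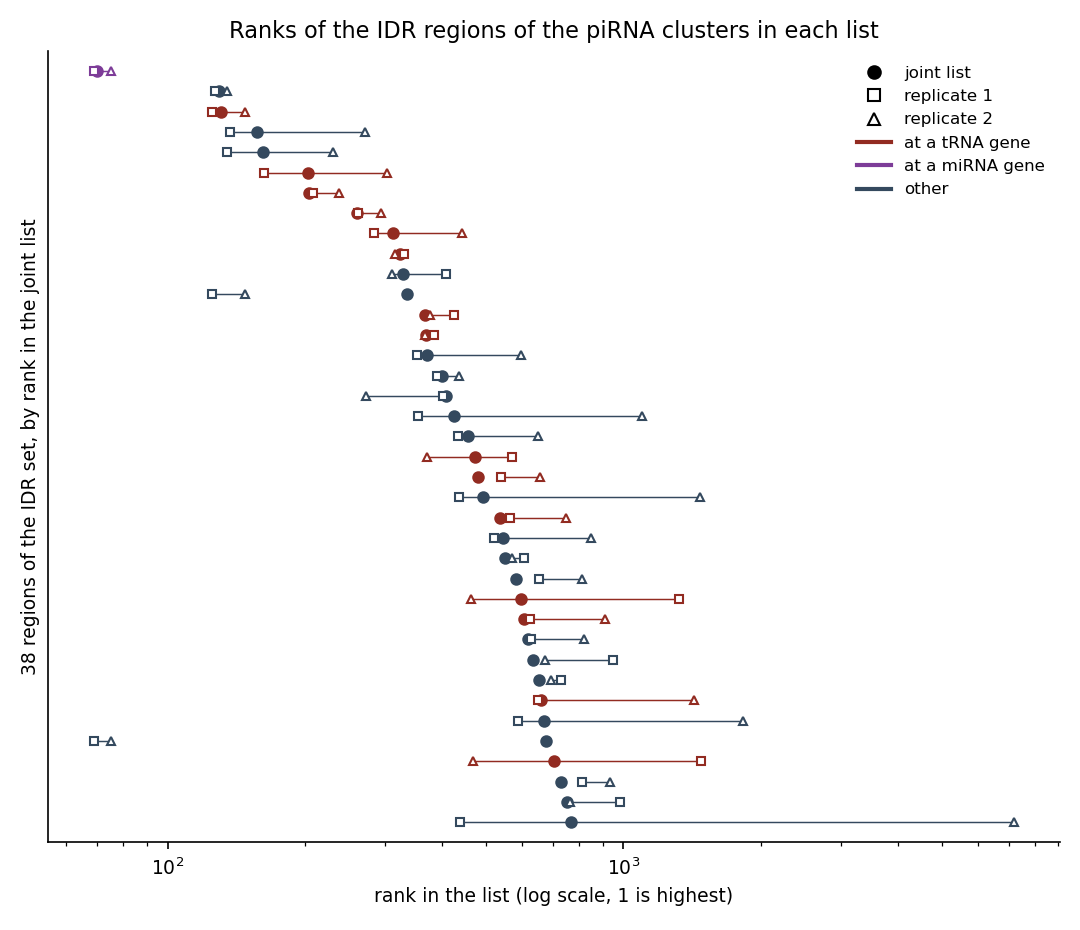
Ranks of the 38 IDR members in the joint list (filled circles), in replicate 1 (squares) and in replicate 2 (triangles), on a log scale, 1 row for each region, ordered by rank in the joint list. The highest, at cel-mir-52, ranked 70, 69 and 75, and regions at tRNA genes are spread from rank 131 to 706. Rows whose replicate marks lie far to the left, at joint ranks of 336 and 676, overlap the same replicate regions as a higher member.

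Over all members, 775 of 1003 (77.3%) overlapped a region of replicate 1 and 750 (74.8%) one of replicate 2. In 558 cases (55.6%, interval 52.5 to 58.7) both did, against 1884 of 3293 (57.2%, interval 55.5 to 58.9) in the rest of chromosome IV, and 36 members overlapped neither. The intervals inside and outside the clusters overlapped. Over those 558 the rank correlation between the replicates was 0.41 (Spearman), a description over regions that share their libraries. Of the members, 354 (35.3%) overlapped another member, and 997 were 484 bp wide, a width set by the authors' caller.

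Coding genes of the clusters were marked less often than those outside. Counting summits from 2 kb upstream of a gene to its end, 367 of 941 coding genes of the clusters (39.0%, interval 35.9 to 42.2) had a region, against 1386 of 2340 (59.2%, interval 57.2 to 61.2) in the rest of chromosome IV. For IDR regions the shares were 37 genes (3.93%) and 80 genes (3.42%). Neighbouring genes can share a summit in these counts, so genes are not independent and the intervals do not allow for it. Regions were also sparser per Mb in the clusters, and the part of that in these shares was not tested. Chemoreceptors are the G protein-coupled receptors of the sensory neurons, and those counted were named str, srh, sri, srj, srw, srx, srz, srt or srsx. Genes of these families had a region in 4 of 49 cases in the clusters (8.16%, interval 2.27 to 19.6), against 16 of 38 in the rest (42.1%, interval 26.3 to 59.2). The only cluster gene of these families with an IDR region was srz-42, beside H12I19.115, in the right cluster. The IDR summit at the tRNA-Asp gene Y105C5B.t1 lay in srv-16, of a family not counted. Ribosomal protein genes had a region in 3 of 5 cases, rpl-20 with an IDR region, against 11 of 12. Collagen genes, which encode the cuticle, had one in 5 of 6 cases, against 23 of 35. Genes of the major sperm protein had one in 3 of 9 cases, against 0 of 9 in the rest. All 9 in the clusters lie in the left cluster, and the highest, msp-58, ranked only 21791. Nuclear receptor genes had one in 3 of 5 cases, against 18 of 28, and C-type lectin genes in 2 of 9, against 23 of 44. Most of these families are small, and their intervals are wide.

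Genes that make piRNAs or act with them were looked up across the whole genome. Of a list of 25, 19 (76.0%) had a region, against 60.1% of all 19973 nuclear coding genes. No interval stands beside that share, and with 25 genes it is not read as an excess. An IDR region was present in 0 of 25, against 4.24% of all. With 25 genes, 0 cannot be told apart from that share. The median of the best rank among those with a region was 14028, against 8779 over all genes. The highest in the joint list was fkh-5, a forkhead gene whose family has been linked to piRNA transcription. Its rank was 3628, with 10657 in replicate 1 and 2383 in replicate 2. Next was tost-1, a partner of the piRNA processing complex (5721, with no region in replicate 1 and 1693 in replicate 2). Then came parn-1, the exonuclease that trims piRNA ends (7735, with 12571 and 9102). In replicate 1, attf-6 (2674) and snpc-4 (3639) ranked above all of these. Of the complex at the upstream motif, snpc-4 had a best rank of 11387, prde-1 21025 and tofu-5 27135, and tofu-4 had no region in the joint list. The Argonaute gene prg-1 had none in the joint list or in replicate 1, and one ranked 20386 in replicate 2. The germ granule gene pgl-1, which lies in the left cluster, ranked 24795 in the joint list, 8933 in replicate 1 and 3823 in replicate 2.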

How the data were processed

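Anti-GFP ChIP-seq of 2 biological replicates was deposited as lists of regions in builds ce11 and ce10. Per the text notes deposited with the samples, the authors called 1 list on each replicate and 1 on both together, each with background regions as input for IDR, and derived an IDR set. The sources used here do not name an aligner, a caller, their versions or the IDR threshold. The deposited score of each region, whose scale is not stated, was used only to rank regions within a list. Depth is unknown.

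Members were taken by summit on ce11, set against WBcel235 and Ensembl release 115, with tRNA names from RefSeq of the same assembly. The members and gene lists were chosen with earlier results of these data known. Named regions are the 20 highest members, the 5 highest of each cluster and of those within 100 bp of a piRNA gene, and the IDR members at one. Other IDR members, snr-1, gtsf-1, cel-mir-52's second summit and the windows shown were picked after their values were seen. Location classes, in order of priority, are promoter (1 kb), exon, intron and intergenic. Regions of different lists were matched by an overlap of at least 1 bp. No test was run, since there is 1 group. The counting was tested on simulated data with planted regions. Alternatives were each replicate's list, borders, distances, overlapping and low regions, ce10 and, added after the values were seen, location classes and ranges of G and C. The ce10 lists of single replicates were not used here. Scripts ran under Python 3.11.15 with pandas 2.3.3, numpy 2.4.6, scipy 1.17.1 and, for plots, matplotlib 3.10.9. Coordinates are 1-based.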

Additional observations from a re-analysis of the deposited data

How the results depend on the processing

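Each value below was recomputed with 1 choice changed. Left with the highest 5000 regions, the clusters held 176 members, of which 4.55% were at piRNA genes, 13.1% at tRNA, snoRNA or snRNA genes and 37.5% in promoters, 96.6% were found in both replicates, and 0.0774% of piRNA genes had a summit. With borders moved inwards by 0.25 Mb the shares were 11.4% at piRNA genes, 3.98% at tRNA, snoRNA or snRNA genes and 27.9% in promoters. With overlapping regions dropped they were 27.6% in promoters, 51.1% in both replicates and 0.746% of piRNA genes. A distance of 50 bp in place of 100 gave 5.38% at piRNA genes, 0.507% of piRNA genes and 2.59% at tRNA, snoRNA or snRNA genes, and 250 bp gave 22.8%, 2.71% and 4.49%. Promoters of 500 bp held 18.0% of members. With summit windows reaching 100 bp to each side, CTGTTTCA was in 5.08% of members. Its inner letters TGTTTC were in 11.9% of members in the main windows. No share of all windows stands beside these. Summits within 100 bp of each other were found in both replicates for 27.8% of members.

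With 1 replicate left out, the lists ranged from 11.1 to 13.4% at piRNA genes, 1.25 to 1.50% of piRNA genes with a summit, 2.28 to 3.20% with CTGTTTCA, 28.1 to 28.2% in promoters and 2.91 to 3.01% at tRNA, snoRNA or snRNA genes. The counts of members and of IDR members stayed within 1.5 times their main value in ce10 and under the other alternatives that were run, except the highest 5000 for all members. The ratio of the share at piRNA genes to that of bases was below 1 in either cluster under every single change that was run on the joint list or to a whole replicate's list, and closest to it in windows of 50% G and C or more, at 0.92 in both. Within replicate 1 it was above 1 in a pair of G and C ranges of the left cluster (1.03 and 1.38). With unknown depth, a missing region does not show missing recovery.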
